A study of Mus musculus with 15 samples.

Results

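The genes described here encode the machinery that senses broken or stalled DNA and repairs it by copying an intact sister strand. They are 44 genes, of 55335 gene identifiers in the count files: the damage checkpoint kinases and their partners, the homologous recombination factors and the Fanconi anaemia proteins. They were chosen by symbol from what their proteins do; the rule uses no measured value, but the choice was made with earlier results of these data known. All 44 were found in the files and passed the filter on low counts, and the member with the fewest reads in any library had 108 of them. Of these genes, edgeR's quasi-likelihood test called 0 as different between the Msl2 knockout line and the wild-type clone, where it called 4.59% of all 13077 tested genes.

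The RNA came from mouse pre-B cells grown in culture, the stage at which a B cell precursor divides under interleukin 7 and rearranges its immunoglobulin genes. Per the labels, all cells, controls included, came from bone marrow that lacks SLP65 (the adaptor protein encoded by Blnk) and were expanded in medium with interleukin 7 from a single cell. The knockout line was made from this clone by electroporation of a guide RNA against Msl2, which encodes a ubiquitin ligase of the MSL histone acetyltransferase complex. There were 3 libraries titled MSL2WT-preB, called wild type here, and 3 titled MSL2KO-preB, called knockout. Each genotype is 1 line, and nothing in the labels says that replicates were separate cultures, so a p-value here reflects only how much the libraries differ, and that spread may be technical. The genotype tags contradict the titles in all 6 libraries, and every direction given below depends on the titles. Msl2 itself was at 97.2, 99.3 and 92.3 CPM (a share of the TMM-scaled library total) in the wild type and at 105, 103 and 121 CPM in the knockout. The edited stretch of Msl2 is not given in the sources used here, so this level does not check the titles. Blnk transcripts were at 83.2 to 119.6 CPM in the wild type and 108 to 116 CPM in the knockout, in cells that all lack the SLP65 protein per the labels.

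Total counts ran from 14092278 to 20803227 per library, and the 44 genes together took between 0.29% and 0.314% of them. The 8 markers of pre-B cells summed to between 1910 and 2040 CPM in wild-type libraries and 1940 CPM in each knockout library. Markers of 3 other cell classes were low. The 9 T and NK cell markers summed to 0.796 to 2.14 CPM in the wild type and 0.99 to 1.93 CPM in the knockout, with Thy1, Nkg7 and Ncr1 at 0 in all libraries. The 8 myeloid markers summed to at most 1.02 CPM in any library (Lyz2, Elane and S100a8 at 0) and the 6 stromal markers to at most 0.132 CPM. Knockout replicate 2 stood apart from the other knockout libraries in Tph1, a gene picked for this reason after its values were seen. It was at 1.12, 14.6 and 1.25 CPM in the knockout libraries and at 65.6, 73.3 and 86.5 CPM in the wild type. Results were also computed without each library and without both libraries numbered 2.

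As background, a double-strand break is bound by the MRE11-RAD50-NBS1 complex, which activates the kinase ATM. Single-stranded DNA at a stalled fork recruits the kinase ATR through ATRIP, and TOPBP1 activates ATR. Both kinases pass the signal to CHK1 and CHK2, which delay the cell cycle. In S and G2 phase the broken end is resected, and BRCA1, PALB2, BRCA2 and the complexes of XRCC2 and XRCC3 prepare it for copying from the sister chromatid. The Fanconi core complex attaches ubiquitin to FANCD2 and FANCI, a step needed to unhook DNA crosslinks. Many of these genes are transcribed mainly in dividing cells, and pre-B cells divide fast.

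The promoters of the genes show which of them carry letters known from regulators of dividing cells. RefSeq promoter windows (GRCm38.p6, the same build as mm10), which run from 250 bases before to 50 bases after an annotated start, were matched for 34 of the 44 genes. Rad9a, H2afx, Rad50, Nbn, Rbbp8, Exo1, Rad51d, Xrcc2, Rad54b and Fancd2 had no entry. An E2F motif, searched as TTTCCCGC, TTTCGCGC, TTTGCCGC or TTTGGCGC on both strands, was in the windows of 7 of the 34 genes (20.6%), against 4.99% of 8899 tested genes and 2.6% of all 27025 genes with a window. E2F factors are the classic activators of S phase genes. One match per gene is shown here as a site of 30 bases, on the strand of the gene and with the match in capitals, because they are a feature that the choice of the genes did not use.
Chek2 at chr5:110839820-110839849, plus strand: cgggattagccGCGGGAAAccaagacgtcg
Topbp1 at chr9:103305187-103305216, plus strand: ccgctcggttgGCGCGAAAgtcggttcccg
Mdc1 at chr17:35841471-35841500, plus strand: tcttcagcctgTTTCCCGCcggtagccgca
Bard1 at chr1:71103163-71103192, minus strand: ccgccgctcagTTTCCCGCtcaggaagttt
Brca2 at chr5:150522442-150522471, plus strand: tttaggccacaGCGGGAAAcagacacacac
Rad51c at chr11:87404941-87404970, minus strand: cccccgcgaggGCGGGAAAagcaaggggtc
Fancg at chr4:43010335-43010364, minus strand: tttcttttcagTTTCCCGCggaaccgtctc
All of these hold TTTCCCGC or its reverse complement except Topbp1, which holds the reverse complement of TTTCGCGC. A CCAAT box (CCAAT, both strands), the binding site of NF-Y, was in the windows of 20 genes (58.8%), against 43.4% of tested genes and 41.1% of all genes. The CHR element (TTTGAA or TTCGAA, both strands), a site of cell cycle genes, was in 5 (14.7%, against 17.2% and 21.7%). Matches of different motifs overlapped at 1 place in these windows, between a CHR element and a CCAAT box of Rnf8.

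The series title names YY1, a zinc finger factor, as a guide of the MSL complex, so a YY1 motif (AANATGGC, both strands, N being any base) was searched in the same windows. It was in 1 of the 34 genes (2.94%), against 10.8% of tested genes and 6.96% of all genes. The match was in the window of Slx4, a scaffold for DNA nucleases, shown here for that reason with the match in capitals.
Slx4 at chr16:4001711-4001740, minus strand: aaaaatgacatAAAATGGCagtagctgtct
The Slx4 start used by the promoter table lies 2151 bases inside the annotated span of the gene, and for 5 of the 34 genes in all the window started more than 500 bases inside the span. A letter match is a description and not a bound site, and the MSL2, YY1 and RNA polymerase II samples of the series were not analysed here.

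**Figure D1:**
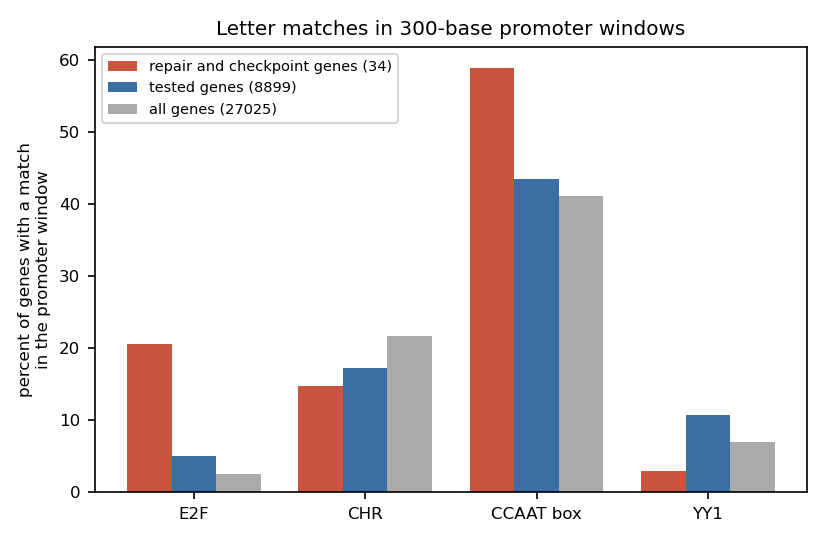
Percent of genes with at least 1 letter match in their promoter window (vertical axis) for 4 motifs (horizontal axis), for the 34 repair and checkpoint genes with a window, tested genes and all genes with a window. E2F matches were in 20.6% of the repair and checkpoint genes and in 4.99% of tested genes, and YY1 matches in 2.94% and 10.8%.

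Across all 13077 tested genes, 235 rose and 365 fell in the knockout at a Benjamini-Hochberg adjusted p under 0.05, which is 4.59% of them (1.8% higher and 2.79% lower). None of the 44 repair and checkpoint genes was among these calls, and of the tested genes in the same range of abundance 4.5% were. At an unadjusted p under 0.05 there were 3 (Xrcc2, Rad51c and Topbp1), whereas 15.4% of all tested genes reached that level. DESeq2 called 1 of the 44, Xrcc2, against 6.07% of all genes, and limma-voom called 0, against 4.74%. Their log2 fold changes (knockout over wild type) had a median of 0.01, with 24 above 0 (51% of all tested genes were) and 20 below, and ran from -0.35 to 0.41. All tested genes had a median of 0.00. In bulk RNA, fewer cells with a transcript and less transcript per cell cannot be told apart.

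The differences were small as well as uncalled. The median absolute log2 fold change was 0.071 in the repair and checkpoint genes, 0.125 in all tested genes and 0.096 in the 8447 tested genes within the same range of abundance. None of the 44 differed by 1.5-fold, whereas 8.69% of all tested genes and 3.35% of those in the same abundance range did. For 43 of the 44 the 95% interval of the difference lay wholly within 1.5-fold in either direction, as it did for 62.5% of all tested genes and 88.8% of those in the same abundance range. Rad51c was the exception.

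**Figure D2:**
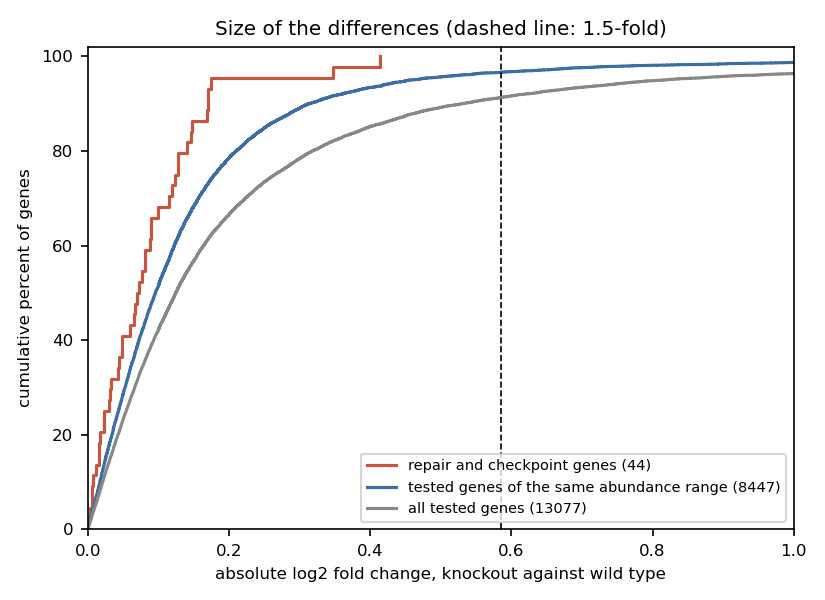
Cumulative percent of genes (vertical axis) by absolute log2 fold change between knockout and wild type (horizontal axis, shown up to 1), for the 44 repair and checkpoint genes, 8447 tested genes in the same abundance range and all 13077 tested genes. The curve of the repair and checkpoint genes reaches its top left of the dashed line at 1.5-fold, while 3.35% and 8.69% of the other curves lie beyond it.

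The knockout and wild-type libraries did not overlap for 7 of the 44 genes. Topbp1 and Fancc were higher in all knockout libraries, and Atrip, Blm, Rad51d, Xrcc2 and Xrcc3 were lower. Such separation was found in 20.9% of all tested genes, 9.68% of them higher and 11.2% lower, so the count is not above that background. Variation between replicates was small, with a median coefficient of variation of 7.27% in the wild type and 5.53% in the knockout. It was lowest in the wild-type libraries for Chek2 (0.968%) and highest for H2afx (21.7%).

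**Figure D3:**
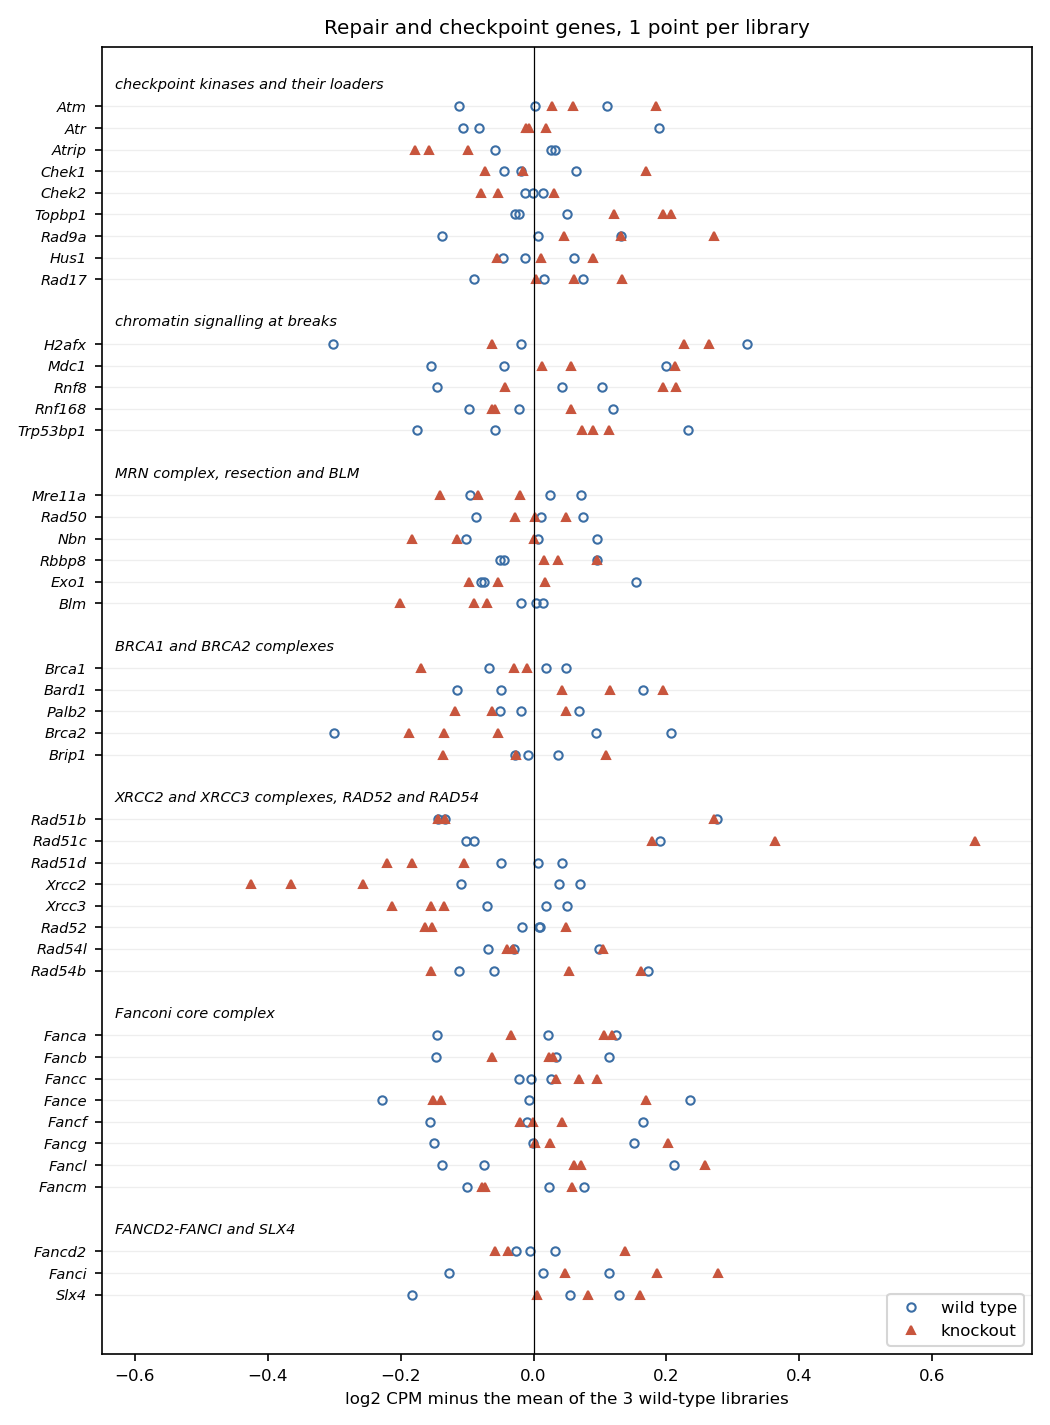
The log2 CPM of each repair and checkpoint gene in each library minus the mean of its 3 wild-type libraries (horizontal axis), with genes on the vertical axis grouped by role, circles for wild type and triangles for knockout. Most triangles lie among the circles, and the triangles of Xrcc2 lie left and those of Topbp1 right of all their circles.

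The genes of the XRCC2 and XRCC3 complexes held the widest differences of any role. These proteins form a complex of RAD51B, RAD51C, RAD51D and XRCC2 and another of RAD51C and XRCC3, and both are needed for homologous recombination. Xrcc2 (ENSMUSG00000028933.11, chromosome 5, 25689814 to 25705797, mm10) had the smallest p of all 44 genes. Wild-type replicates 1, 2 and 3 had 42.8, 37.7 and 41.8 CPM of Xrcc2, and knockout replicates 1, 2 and 3 had 31.6, 34 and 30.3 CPM. Every knockout library lay below every wild-type library. Mean levels of 40.8 ± 2.7 and 32 ± 1.9 CPM (SD, n = 3 per group) put the knockout 1.27-fold lower, with a log2 fold change of -0.35 ± 0.09 (SE). The adjusted p was 0.0587 in edgeR (unadjusted p 0.00297), 0.0462 in DESeq2 and 0.0611 in limma-voom. Without the filter on low counts the adjusted p was 0.0296, so the side of the threshold on which Xrcc2 falls depends on the tool and the filter. The log2 fold change ran from -0.40 to -0.31 when each library was left out in turn (adjusted p from 0.0598 to 0.194), and it was -0.45 without both libraries numbered 2 (adjusted p 0.135).

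Rad51c (ENSMUSG00000007646.13, chromosome 11, 87376645 to 87404954), the subunit common to both paralogue complexes, differed in the other direction. It was at 10.2, 8.29 and 8.36 CPM in the wild type and at 14.2, 10.1 and 11.5 CPM in the knockout. The groups overlapped, because wild-type replicate 1 lay just above knockout replicate 2, and in both groups replicate 1 was the highest. The log2 fold change was 0.41 ± 0.16 (SE) with a 95% interval from 0.05 to 0.77 and an adjusted p of 0.239 (unadjusted p 0.0283). With 1 library left out, the value lay anywhere from 0.27 (without knockout replicate 1) to 0.53. Rad51c had between 126 and 228 reads per library, near the bottom of the gene set, and its interval was among the widest.

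The other subunits lay between these. Rad51d was at 27.4, 25.7 and 26.7 CPM in the wild type and 24.8, 23.4 and 22.8 CPM in the knockout, with all knockout libraries lower (log2 -0.17, adjusted p 0.422). Xrcc3 was at 8.05, 8.23 and 7.56 CPM and at 6.84, 7.23 and 7.13 CPM (log2 -0.17, adjusted p 0.681). Rad51b was at 14.4, 10.8 and 10.7 CPM and at 14.4, 10.7 and 10.8 CPM. Its group means were 12 ± 2.1 and 12 ± 2.1 CPM, and its replicate 1 was the high library in both groups. Among the other recombination factors of this role, Rad54l, Rad54b and Rad52 had log2 fold changes of 0.01, 0.02 and -0.09. Of the 8 genes of this role, 3 had positive and 5 negative values, with a median of -0.04.

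**Figure D4:**
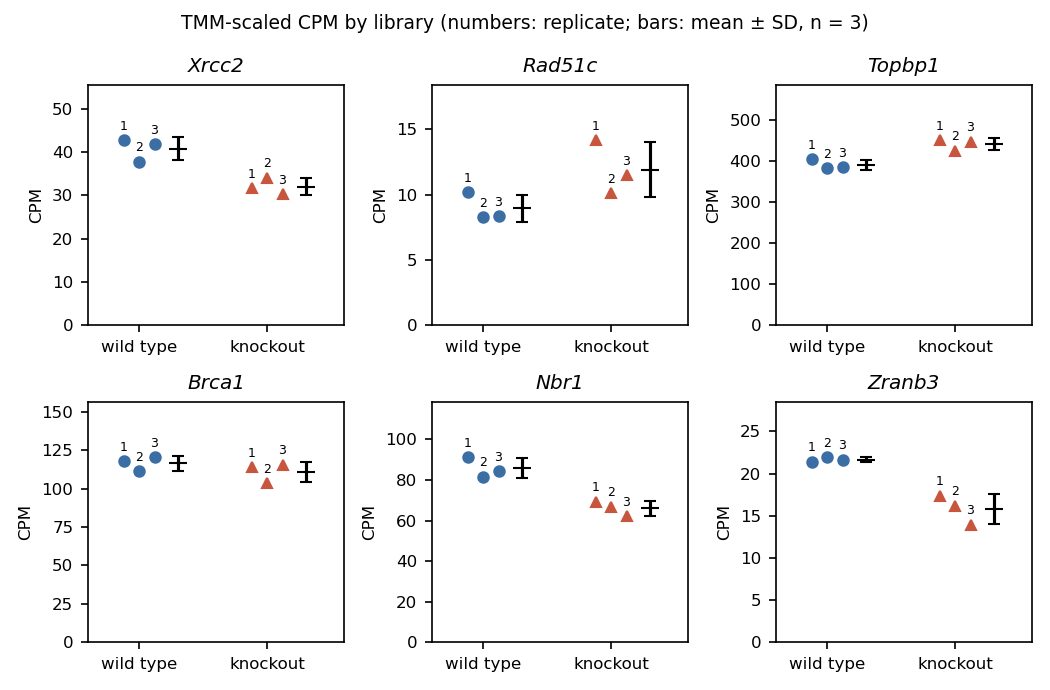
CPM (vertical axis, from 0) in the 3 wild-type and 3 knockout libraries for Xrcc2, Rad51c, Topbp1, Brca1, Nbr1 and Zranb3, with replicate numbers beside the points and bars for the mean ± SD (n = 3). Xrcc2, Nbr1 and Zranb3 are lower and Topbp1 higher in all knockout libraries, while the groups of Rad51c and Brca1 overlap.

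Of the 9 checkpoint kinases and their loaders, 6 had positive and 3 negative log2 fold changes, with a median of 0.03. Topbp1 (ENSMUSG00000032555.10, chromosome 9, 103305167 to 103350428), the activator of ATR, was at 404, 383 and 384 CPM in the wild type and 450.5, 424 and 446 CPM in the knockout. All knockout libraries were higher, by 0.17 ± 0.07 (SE) on the log2 scale, with an adjusted p of 0.256 (unadjusted p 0.0322). Topbp1 was the member with the most reads (41344 over the 6 libraries), and its interval from 0.02 to 0.33 was among the narrowest.

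Neither apical kinase was called. Atm, which responds to double-strand breaks, was at 204, 219.6 and 188 CPM in the wild type and 207.5, 231 and 212 CPM in the knockout, and the groups overlapped. Its log2 fold change was 0.09, with an interval from -0.09 to 0.27. Atr, which responds to single-stranded DNA, was at 171, 142 and 139.7 CPM and at 149.7, 152 and 149 CPM. The knockout libraries of Atr lay within the wild-type range, with a log2 fold change of -0.01 (-0.20 to 0.19). Atrip, the partner that brings ATR to DNA, was at 33.4, 35.4 and 35.6 CPM and at 30.7, 31.2 and 32.5 CPM. All its knockout libraries were lower (log2 -0.15, adjusted p 0.467). A read-through transcript joins Atrip to the neighbouring Trex1 in RefSeq, so reads of the pair may be shared.

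Neither effector kinase was called. Chek1, which restrains CDC25 phosphatases after replication stress, was at 78.6, 72.9 and 74.2 CPM in the wild type and 74.4, 71.5 and 84.5 CPM in the knockout (log2 0.03). Chek2, the effector of ATM, was at 44.4, 44 and 44.9 CPM and at 42.8, 45.3 and 42 CPM (log2 -0.03). Both genes had overlapping groups, and their intervals reached at most 0.21 in size. Rad9a and Hus1, subunits of the clamp that marks damaged DNA, and Rad17, its loader, had log2 fold changes of 0.15, 0.02 and 0.07.

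Factors that mark chromatin around a break gave 4 positive and 1 negative value, with a median log2 fold change of 0.09. H2afx encodes the histone variant H2AX, which ATM phosphorylates around breaks. It was at 160, 195 and 247 CPM in the wild type and 237.5, 189 and 231 CPM in the knockout. The wild-type libraries alone spanned the whole range of the knockout libraries, and the log2 fold change was 0.13 with an interval from -0.20 to 0.45. Mdc1, which binds phosphorylated H2AX, the ubiquitin ligases Rnf8 and Rnf168, and Trp53bp1, which restrains resection, had log2 fold changes of 0.09, 0.12, -0.02 and 0.08. In Trp53bp1 the wild-type libraries spread from 64.9 to 86.2 CPM, while the knockout libraries lay between 77.2 and 79.3 CPM.

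Genes of end resection had 2 positive and 4 negative values, with a median of -0.06. Mre11a, Rad50 and Nbn, the sensor complex, had log2 fold changes of -0.08, 0.01 and -0.10. Rbbp8, encoding the resection factor CtIP, was at 0.05 on this scale and the exonuclease gene Exo1 at -0.05. Blm, the helicase that dissolves joined DNA molecules, was at 100.3, 98.1 and 99.6 CPM in the wild type and 86.4, 94.6 and 93.3 CPM in the knockout. All its knockout libraries were lower (log2 -0.12, adjusted p 0.495).

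In the BRCA group, 1 gene had a positive and 4 a negative value, with a median of -0.04. Brca1 (chromosome 11, 101488761 to 101551955) was at 118, 111 and 120.3 CPM in the wild type and 114, 103.5 and 115.5 CPM in the knockout, with overlapping groups. Its log2 fold change was -0.07 (-0.23 to 0.10) with an adjusted p of 0.771. Brca2, whose protein acts on the resected end, was at 72.3, 66.9 and 50.8 CPM and at 57, 60.3 and 55 CPM. The spread of its wild-type libraries, a coefficient of variation of 17.6%, was larger than the difference between the means (63.3 ± 11.2 and 57.4 ± 2.7 CPM, log2 -0.14, adjusted p 0.689). Bard1, the partner of BRCA1, Palb2, which links BRCA1 to BRCA2, and the helicase gene Brip1 had log2 fold changes of 0.12, -0.04 and -0.02.

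None of the Fanconi core complex genes was called. Fanca, Fancb, Fancc, Fance, Fancf, Fancg, Fancl (the ubiquitin ligase subunit) and Fancm (its DNA translocase) had log2 fold changes between -0.04 and 0.13, with 5 positive and 3 negative and a median of 0.03. Fancc was at 25.7, 26.1 and 26.6 CPM in the wild type and 26.7, 27.9 and 27.4 CPM in the knockout. Its groups did not overlap, but its log2 fold change was only 0.07, with an adjusted p of 0.814. Fancd2, the substrate of the complex, was at 104, 99.4 and 101 CPM and at 111.5, 98.7 and 97.3 CPM. Its groups overlapped, with a log2 fold change of 0.02 (-0.15 to 0.19). Fanci, which pairs with FANCD2, was at 0.17 (-0.04 to 0.38, adjusted p 0.455) and Slx4 at 0.08.

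**Figure D5:**
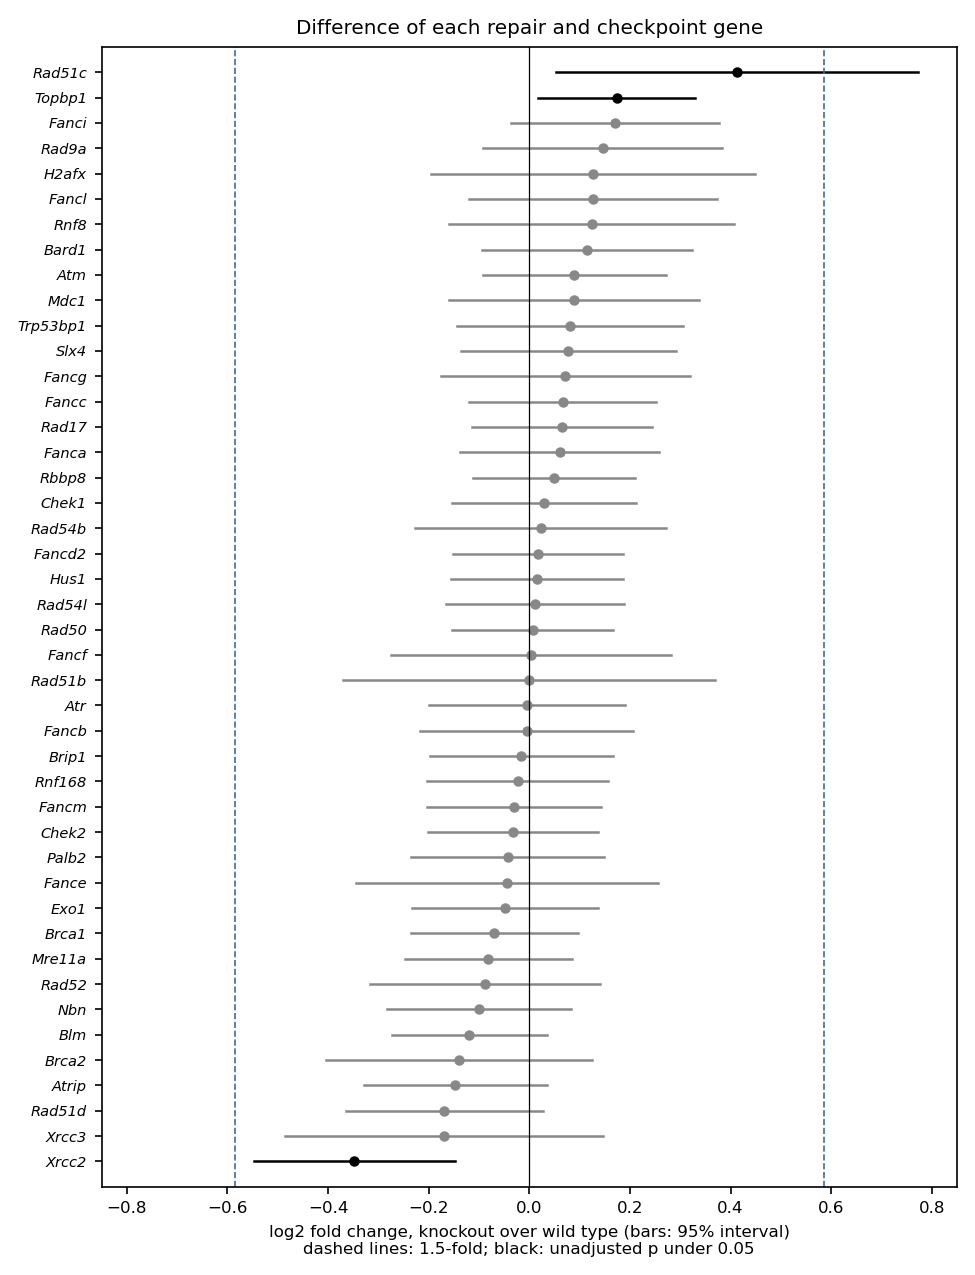
Log2 fold change of each repair and checkpoint gene, knockout over wild type (horizontal axis; points, with bars for the 95% interval), ordered by value on the vertical axis. Black marks an unadjusted p under 0.05 and dashed lines mark 1.5-fold; only the bar of Rad51c crosses a dashed line.

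Several of these genes share their promoter region with a neighbour that is read the other way. In the promoter table, 11 members had an opposite start of another gene within 1000 bases upstream, and 9 of the 12 partners were tested. The pair Atm and Npat, with starts 376 bases apart, had log2 fold changes of 0.09 and 0.00, and Mre11a and Ankrd49 (81 bases) had -0.08 and -0.09. Of the 9 partners, 1 was called, Nbr1, where 4.59% of all tested genes were. The other 8 had log2 fold changes from -0.24 to 0.15. Tex14 and Zfyve21, among these 8, had low wild-type means of 0.713 and 3.93 CPM. Nbr1 encodes a receptor of selective autophagy and starts 152 bases from Brca1. The stretch between the 2 starts is printed because 1 neighbour passed the test and the other did not. It is read here on the strand of Brca1, with a CCAAT box in capitals, and it is 151 bases long with 50.3% G and C.
Brca1 to Nbr1, chr11:101551956-101552106, minus strand: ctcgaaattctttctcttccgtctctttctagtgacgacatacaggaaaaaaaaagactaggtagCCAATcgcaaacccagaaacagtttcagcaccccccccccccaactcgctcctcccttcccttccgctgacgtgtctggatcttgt

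Nbr1 (chromosome 11, 101552107 to 101581951), singled out after its values were seen, was at 91.1, 81.6 and 84.3 CPM in the wild type and 69.3, 66.9 and 62 CPM in the knockout. Every knockout library was lower. It fell by 0.37 ± 0.08 (SE) on the log2 scale, with an adjusted p of 0.0215 in edgeR. The call was lost without wild-type replicate 1 (0.0944), knockout replicate 2 (0.0812) or knockout replicate 3 (0.0898), and without both libraries numbered 2 (0.148), while the log2 fold change stayed between -0.41 and -0.33. The difference between Nbr1 and Brca1 was not tested.

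Positions can also blur counts. The spans of 20 of the 44 genes overlap another annotated gene, and those of 12 overlap a tested one. These include Rad9a with Ppp1ca, Trp53bp1 with Tubgcp4, Xrcc3 with Klc1, Fanca with Zfp276, Fancl with Vrk2 and Fanci with Polg. The strand setting of the counting is not given in the sources used here, so reads in the shared stretches cannot be assigned. The values of the 12 members with a tested neighbour of this kind carry that uncertainty, and so do those of members whose overlapping gene was not tested. Among the latter, Rnf8 shares 26876 bases with Gm28043, and Atrip shares 14351 bases with its read-through transcript.

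A second list held 59 other genes of recombination, fork protection and checkpoint control, of which 58 were tested. Of these, 1 fell and 0 rose in edgeR (5 at an unadjusted p under 0.05, 1 called by DESeq2 and 1 by limma-voom), with a median log2 fold change of -0.01. None of these counts was above the share over all tested genes, which was 4.59% for edgeR calls, 15.4% at the unadjusted level, 6.07% for DESeq2 and 4.74% for limma-voom. The gene that fell was Zranb3 (chromosome 1, 127954179 to 128103053), a translocase that remodels stalled replication forks. It was at 21.4, 21.9 and 21.6 CPM in the wild type and 17.4, 16.2 and 13.9 CPM in the knockout, with every knockout library lower. The log2 fold change was -0.45 ± 0.11 (SE), with an adjusted p of 0.0443. That call was close to the threshold. It held without knockout replicate 1 (0.0409) but not without any other single library (adjusted p from 0.0855 to 0.139), nor with library totals only (0.0715), only genes with mean log2 CPM from 2 upward kept (0.0593) or both libraries numbered 2 left out (0.306). The others at an unadjusted p under 0.05 were all lower in the knockout. They were Abraxas1, a BRCA1 partner (log2 -0.30), the helicase gene Recql5 (-0.29), the crosslink endonuclease gene Ercc4 (-0.26) and Rad1, the clamp partner of Rad9a and Hus1 (-0.24), with adjusted p from 0.142 to 0.222.

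Genes that respond to damage or accompany DNA synthesis gave the setting. Of 23 p53 target genes, 17 were tested, and 0 of them passed in edgeR, 1 in DESeq2 and 0 in limma-voom. Over all tested genes the shares were 4.59%, 6.07% and 4.74%. The log2 fold changes of the 17 had a median of -0.07 and ran from -1.28 to 0.59. Of the 17, 2 (11.8%) differed by more than 1.5-fold, against 8.69% of all tested genes. The unadjusted p was under 0.05 for 1 gene, against 15.4% of all tested genes. The gene concerned was Pmaip1, the death-promoting NOXA, at 26.6, 24.5 and 22.2 CPM in the wild type and 20.3, 16.9 and 15.8 CPM in the knockout (log2 -0.47, adjusted p 0.0574 in edgeR and 0.0331 in DESeq2). Of 26 S phase genes, 1 fell and 0 rose in edgeR, where 4.59% of all tested genes were called. An unadjusted p under 0.05 was reached by 5, against 15.4% of all tested genes. The median was 0.05 (18 positive and 8 negative values). Groups did not overlap for 5 genes higher and 1 lower in the knockout, against 9.68% and 11.2% of all tested genes. Of the 5 with an unadjusted p under 0.05, all but Mcm5 were higher in every knockout library. Mcm5, a subunit of the replicative helicase, fell from 528 ± 60 to 388 ± 33 CPM (SD, n = 3), with an adjusted p of 0.0316. This call was lost on leaving out any of 4 single libraries (wild type 1 and 3, knockout 1 and 2), where the adjusted p lay from 0.0635 to 0.135, and both libraries numbered 2 (0.142). Mki67, a marker of dividing cells, was at 834 ± 44 and 997 ± 25 CPM (SD, n = 3), with an adjusted p of 0.0966 by edgeR, 0.00881 by DESeq2 and 0.0724 by limma-voom. The others were Uhrf1, which maintains DNA methylation (log2 0.25, adjusted p 0.265), the DNA ligase gene Lig1 (0.20, 0.272) and the polymerase gene Pola1 (0.15, 0.312). DESeq2 called 2 of the 26 and limma-voom 1, against 6.07% and 4.74% of all tested genes. Whether these S phase values bear on those of the repair genes was not tested.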

How the data were processed

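The deposited files hold raw counts per gene for 6 RNA libraries, not normalised, per the file headers. Per the labels' protocols, ribosomal RNA was removed from total RNA. Among the tools in the submitters' processing notes are featureCounts 2.0.0 and STAR 2.5.3a, with the build mm10 and no role given; the annotation and the handling of multiply matching reads are not stated there or elsewhere in the sources. The 9 chromatin samples were not analysed here.

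Groups follow the titles. Identifiers were matched to symbols without their version suffix (55154 of 55335). Counts were filtered with filterByExpr, given TMM scaling factors and tested in edgeR 4.0.16 under R 4.3.3 (quasi-likelihood test, no covariate), with Benjamini-Hochberg adjustment over all 13077 genes and a threshold of 0.05. The SE came from the fold change and the F statistic, and the 95% interval from the SE and the test's degrees of freedom. Scripts were tested on simulated data. Depth was 14092278 to 20803227 counts per library, so that 1 read is 0.0469 to 0.0707 CPM. Replicates of a group all differed by more than sampling noise (chi-square per degree of freedom 6.53 to 17.5).

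Members and lists were chosen with earlier results of these data known. All members are accounted for; values per library are given for called members, those with an unadjusted p under 0.05, the main kinases, Brca1, Brca2, Fancd2 and Rad51c, and for some others where groups did not overlap or to show the spread, chosen after their values were seen. The same holds for positions and intervals. Levels are not compared between genes, since transcript lengths were not used here. Alternatives were RLE scaling, library totals, DESeq2 1.42.0, limma-voom (limma 3.58.1), no filter, only genes with mean log2 CPM from 2 upward, the replicate block, and each library omitted in turn. Omission of both libraries numbered 2 was chosen after seeing the data. A further marker list is not reported here.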

Additional observations from a re-analysis of the deposited data

How the results depend on the processing

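Over 14 alternatives, at most 1 of the 44 genes was called, Xrcc2, in 2 of them (no filter on low counts, and DESeq2), so the count of called members was 1 in each of these and 0 elsewhere. The sign of the log2 fold change turned in at least 1 alternative for 19 members, none of them called and none over 0.13 in size in the reported fit, and kept for 25. The median over members ran from -0.016 to 0.044 when each library was left out. The count over all tested genes moved with the setting too, so the list counts below stand beside it. It was 600 of 13077 as reported, 1203 of 26696 without the filter and 392 of 9635 with only genes of mean log2 CPM from 2 upward. It was 793 in DESeq2 (6.07%), 524 of 13077 with library totals and 946 of 13077 with the replicate number as a block. Without both libraries numbered 2 it was 399 of 12912. Without each library it ran from 380 (of 13388, without wild-type replicate 1) to 504 (of 13358, without wild-type replicate 2). The other repair genes had 0 calls with library totals, with the stricter filter and without both libraries numbered 2, and 0 to 1 without each library. The p53 targets had 3 calls without the filter (21 tested), 1 in DESeq2 and 1 with the block, and 0 to 1 without each library. The S phase genes had 2 calls in DESeq2, 3 with the block, 0 without both libraries numbered 2, and 0 to 1 without each library. Deviations of libraries from their group mean correlated across genes at 0.029, 0.212 and 0.403 between groups for the same replicate number. For different numbers the correlations ran from -0.396 to 0.272. The reported fit did not use the numbers as pairs, and whether they mark a shared batch was not tested. With the block, 0 members were called. Among the members, the 95% intervals were widest for Rad51b, Rad51c, H2afx and Xrcc3.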
